A study of Mus musculus with 8 samples.

Results

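The genes described here are 44 factors that process ribosomal RNA and assemble ribosomal subunits in the nucleolus of mouse embryonic stem (mES) cells. They were taken by name for their known function, and that rule uses no measured value. The list was, however, chosen with earlier results of these data known. All 44 were found by symbol among the 54146 genes of the count tables. They fall into 8 core proteins of the small nucleolar ribonucleoproteins (snoRNPs), 16 factors of the small-subunit processome, 16 factors of large-subunit assembly and 4 multifunctional nucleolar proteins.

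In the nucleolus, RNA polymerase I (Pol I) transcribes a long precursor rRNA that is cut, chemically modified and folded into the rRNAs of both ribosomal subunits. Box C/D snoRNPs guide 2'-O-methylation and box H/ACA snoRNPs guide pseudouridylation of that precursor. The small-subunit processome cleaves and folds the 18S part, and separate assembly factors mature the 28S and 5.8S part into the pre-60S particle. Embryonic stem cells divide fast and are known for large, active nucleoli.

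Mouse ES cells derived from the inner cell mass were grown for 2 days on gelatin with mouse embryonic fibroblast feeders in LIF/2i medium, and both groups share that culture. The 2 groups were untreated cells and cells given CX-5461, a small molecule that inhibits Pol I. Dose and time of CX-5461 for these libraries are not given in the labels. The labels name 4 samples per condition, but the cells of each condition were deposited together, and nothing in a barcode tells from which sample it came. Barcodes that samples share could not be counted for the same reason. Each condition was therefore taken as 1 library and no difference between conditions was tested. The comparison addresses how transcripts of the rRNA processing machinery differ after Pol I inhibition.

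The values are counts of unique molecular identifiers (UMIs), each marking 1 captured RNA molecule, read at the 3' end of transcripts. The tables gave 3838 barcodes and 49610287 UMIs for control, and 4922 barcodes and 69841836 UMIs for CX-5461. The study's own cell filter leaves 3767 and 4697 of these, more in both libraries than the study states that it plotted. Clusters were built without the 44 genes and other rRNA processing genes, and were named ES-like, fibroblast-like or 2C-like (resembling the 2-cell embryo) from fixed markers. Treatment and library coincide, and of the 5 ES-like clusters each was made almost wholly of 1 library. An unnamed cluster of 1166 control and 3 CX-5461 cells with a median of 2383 UMIs was left out. Its ES marker level was 1.08 times that over all cells, and it stayed unnamed for its low depth. A cluster of 508 CX-5461 cells with a median of 5947 UMIs and a level of 1.03 was named ES-like.

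The main comparison used ES-like cells of no fewer than 5000 UMIs with a mitochondrial share of no more than 0.1. These were 2336 control cells with 41330183 UMIs and 3928 CX-5461 cells with 60507261 UMIs. Median depth was 15959.5 and 14746 UMIs per cell. All 12 ES markers were detected in both sets, and their summed level was 7706 CPM (UMIs scaled to the usual common total) in control and 8220 CPM in CX-5461 cells. The 20 fibroblast markers summed to 238 CPM in control and 363 CPM in CX-5461 ES-like cells. Mitochondrial genes took 1.98% of the UMIs of control cells and 4.03% of those of CX-5461 cells. The part that depth and mitochondrial share have in the results below was not tested.

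Most of the 44 factors were lower in CX-5461 ES-like cells than the typical gene. Their summed level was 10088 CPM in control and 8034 CPM in CX-5461 cells, a log2 ratio on library totals of -0.33 (95% interval -0.33 to -0.32). Intervals here and below cover counting error only, and there was 1 library per condition throughout. Over the 11559 genes with at least 200 UMIs in both libraries together, the median log2 ratio on totals was 0.36, so a gene at equal CPM stood below the median gene. Each ratio is therefore given on totals and relative to the median gene, that is, with 0.36 subtracted on the log2 scale.

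Relative to the median gene, 40 of the 44 factors were lower. A log2 ratio of 0.32 or more either way was taken as the mark for a difference, since no test was possible, and is called the fold from here on. Past that fold, 32 of 44 factors were lower and 1 was higher, while 29.5% of all genes were lower and 31.4% were higher. On library totals 14 were lower and 5 were higher, against 13.9% and 52.4% of all genes. The remaining 25 factors lay within the fold on totals, so most of the 32 differ from the median gene more than they differ in CPM. At a ratio of 1.5 either way, relative to the median gene, 17 factors were lower and 1 was higher, against 16.9% and 21.2% of all genes. On totals that ratio gave 7 lower and 2 higher, against 7.47% and 36.1%. The median relative log2 ratio of the 44 factors was -0.47. All 44 had at least 200 UMIs.

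Genes with few UMIs weigh on the median of all genes. Among the 6088 genes whose mean CPM over both libraries was at least that of the lowest factor, 11.3 CPM, the median log2 ratio on totals was 0.25. Relative to these genes 26 factors were lower and 2 were higher by the fold, against 28.2% and 28.3% of those genes, and the median of the factors was -0.36. The relative log2 ratio and the log10 control CPM of the 44 factors had a Spearman rho of -0.31, given as a description, since both hold the same control counts.

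**Figure D1:**
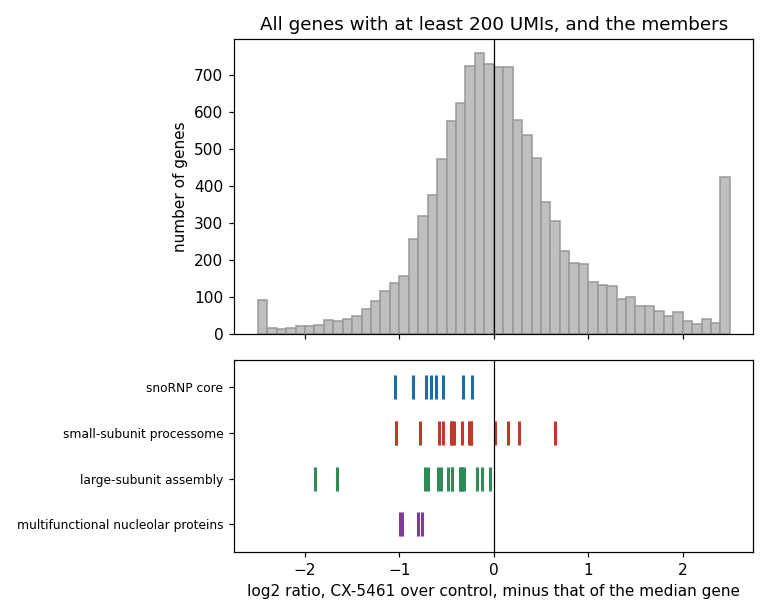
The upper panel counts all genes with at least 200 UMIs by their log2 ratio of CX-5461 over control ES-like cells, minus that of the median gene, and its 2 outermost bars hold all genes beyond them. In the lower panel each tick is 1 factor, and 40 of the 44 ticks lie left of 0, with Ddx18 and Rrs1 farthest left and Utp20 farthest right.

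The level plot shows the same values without any scaling to the median gene. Npm1 and Ncl gave the most UMIs of all factors. Without Npm1 the summed level was 6803 CPM in control and 5622 CPM in CX-5461 cells, and without Npm1 and Ncl it was 5289 and 4635 CPM, a log2 ratio of -0.19. The sum was therefore lower with and without the 2 most counted genes, by less without them.

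**Figure D2:**
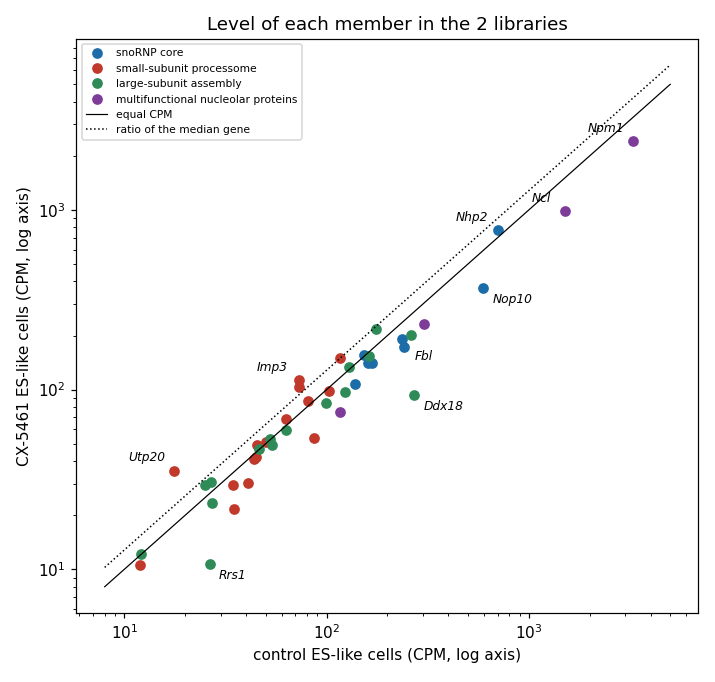
Each point is 1 factor, with its level in control ES-like cells on the horizontal axis and in CX-5461 ES-like cells on the vertical axis, both in CPM on log axes. The solid line marks equal CPM and the dotted line the ratio of the median gene, 1.28; most points lie under the dotted line, and Ddx18 and Rrs1 lie farthest under both.

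The snoRNP core was lower as a group. Its 8 members summed to 2394 CPM in control and 2047 CPM in CX-5461 cells, a log2 ratio of -0.23 (-0.24 to -0.21) on totals. Relative to the median gene 7 of 8 were lower by the fold and none was higher, against 29.5% and 31.4% of all genes. The group median was -0.64. On totals 3 were lower and none was higher, against 13.9% and 52.4%.

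Among the box H/ACA proteins, Nop10, a small protein that binds the catalytic subunit, fell from 594 CPM in control to 368 CPM in CX-5461 cells. That is a ratio of 0.62 (0.608 to 0.631) and a relative log2 ratio of -1.05. Gar1, a further core protein of the particle, stood at 138 CPM and 107 CPM, a ratio of 0.779 (0.751 to 0.807). Its relative log2 ratio was -0.72. Dkc1 encodes dyskerin, the pseudouridine synthase itself, and stood at 153 CPM in control and 157 CPM in CX-5461 cells. Its ratio of 1.02 (0.992 to 1.06) left it below the median gene, at -0.32, but not below its own control CPM. Nhp2, which binds the H/ACA guide RNA, was the member nearest to the median gene at -0.23, with 704 CPM in control and 771 CPM in CX-5461 cells. So the 4 proteins of one particle did not share a ratio: Nop10 and Gar1 were lower on totals by the fold, and Dkc1 and Nhp2 were not.

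Of the box C/D proteins, Fbl encodes fibrillarin, the methyltransferase of the dense fibrillar component, which the study imaged as a protein. Fbl stood at 242 CPM in control and 172 CPM in CX-5461 cells, a ratio of 0.709 (0.69 to 0.729) and a relative log2 ratio of -0.85. Nop56, a scaffold protein of the same particle, stood at 236 CPM and 191 CPM, with a ratio of 0.809 (0.788 to 0.832). Nop58, its partner, stood at 167 CPM and 141 CPM, with a ratio of 0.841 (0.814 to 0.868). Their relative log2 ratios were -0.66 and -0.61. Nolc1, a chaperone that binds both classes of snoRNP, had 160.4 CPM in control and 141 CPM in CX-5461 cells and a relative log2 ratio of -0.54. All 4 had fewer CPM in CX-5461 than in control cells, and Fbl passed the fold on totals while Nop56, Nop58 and Nolc1 did not.

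Factors of the small-subunit processome lay on both sides of the median gene, 12 below it and 4 above. The 16 members summed to 919 CPM in control and 984 CPM in CX-5461 cells, a log2 ratio of 0.10 (0.08 to 0.12) on totals. Relative to the median gene 9 were lower and 1 was higher by the fold, against 29.5% and 31.4% of all genes, and the median was -0.38. On totals 3 of 16 were lower and 4 were higher, against 13.9% and 52.4% of all genes, so the count of lower members was near the share of all genes and that of higher members below it. The sign of the sum depends on the scaling: it was above 0 on totals, -0.26 relative to the median gene and -0.30 under TMM scaling, which sets the totals by the bulk of genes.

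The 4 lowest members of the processome were Utp18, Wdr43, Wdr75 and Tsr1. Utp18, a WD-repeat protein of the UtpB subcomplex, stood at 34.8 CPM in control and 21.7 CPM in CX-5461 cells, a ratio of 0.623 (0.578 to 0.672). Wdr43, of the UtpA subcomplex that binds the start of the precursor, stood at 86.4 CPM and 54.1 CPM, a ratio of 0.626 (0.597 to 0.657). Their relative log2 ratios were -1.04 and -1.03. Wdr75, also of UtpA, stood at 40.8 CPM and 30.4 CPM, with a relative log2 ratio of -0.78. Tsr1, which acts later on the pre-40S particle, stood at 34.4 CPM and 29.6 CPM, with a relative log2 ratio of -0.58. The first 3 were lower by the fold on totals as well, and Tsr1 was not.

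At the other end, Utp20 was higher in CX-5461 cells. Utp20, a very large scaffold protein of late processome maturation, stood at 17.7 CPM in control and 35.4 CPM in CX-5461 cells. Its ratio was 2.00 (1.84 to 2.18) and its relative log2 ratio 0.64, and it was the 1 factor of the 44 that was higher than the median gene by the fold. Imp3, which joins the U3 snoRNA to the precursor together with Imp4, stood at 73.4 CPM and 113 CPM, a ratio of 1.54 (1.48 to 1.61) and a relative log2 ratio of 0.27. Nop14 stood at 72.9 CPM and 103 CPM, with a relative log2 ratio of 0.15. Utp3 stood at 117 CPM and 151 CPM and was level with the median gene, at 0.01 (-0.04 to 0.06). All 4 were higher on totals by the fold, though under TMM scaling Utp3 stood at -0.03.

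The other 8 members of the processome lay between these. They were Rrp12, Bysl, Noc4l, Rrp9, Utp14a, Imp4, Utp4 and Nob1, with relative log2 ratios from -0.54 for Rrp12 to -0.24 for Nob1, the endonuclease that makes the 3' end of 18S rRNA. On totals all 8 lay within the fold, with ratios from 0.88 to 1.08.

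Factors of large-subunit assembly were all below the median gene. The 16 members summed to 1555 CPM in control and 1298 CPM in CX-5461 cells, a log2 ratio of -0.26 (-0.28 to -0.25) on totals. Relative to the median gene 12 were lower and none was higher by the fold, against 29.5% and 31.4% of all genes, with a median of -0.44. On totals 4 were lower and 1 was higher, against 13.9% and 52.4%.

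Ddx18 had the lowest ratio of all 44 factors. Ddx18, a DEAD-box RNA helicase of early pre-60S particles (chr1:121553835-121567989 on GRCm38, minus strand), stood at 272 CPM in control and 93.9 CPM in CX-5461 cells. These values rest on 11234 and 5684 UMIs, the ratio was 0.346 (0.335 to 0.357) and the relative log2 ratio -1.89. Only 1.57% of all genes had a relative log2 ratio as low or lower. Rrs1, which helps bring the 5S ribonucleoprotein into the particle, stood at 26.4 CPM in control and 10.7 CPM in CX-5461 cells, from 1091 and 648 UMIs. Its ratio was 0.406 (0.368 to 0.448) and its relative log2 ratio -1.66. The next lowest factor of the 44 was Nop10 at -1.05, so Ddx18 and Rrs1 stood apart from the rest.

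Next came Gnl3, which encodes nucleostemin, a GTP-binding protein abundant in stem cells, at 261 CPM in control and 202 CPM in CX-5461 cells. Its relative log2 ratio was -0.72. Wdr12 stood at 123 CPM and 97.2 CPM, with a relative log2 ratio of -0.70. Wdr12 forms the PeBoW complex with Pes1 and Bop1, a trio singled out here after the values were seen. Pes1 stood at 63.3 CPM and 59.6 CPM, and Bop1 at 46.1 CPM and 46.7 CPM. The relative log2 ratios of Pes1 and Bop1 were -0.45 and -0.34, and the counting interval of Wdr12 overlapped neither of theirs.

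The 4 highest members of the group were Ebna1bp2, Gnl2, Nle1 and Mrto4. Ebna1bp2 stood at 175 CPM in control and 219 CPM in CX-5461 cells, with a relative log2 ratio of -0.04 (-0.08 to 0.01), and was past the fold upward on totals but at -0.08 under TMM scaling. Gnl2, a GTP-binding export factor, stood at 25.04 CPM and 29.5 CPM, and Nle1, an adaptor for a late remodelling step, at 27.0 CPM and 30.6 CPM. Their relative log2 ratios were -0.12 and -0.17. Mrto4, which holds the place of a stalk protein, stood at 129 CPM and 133 CPM, with a relative log2 ratio of -0.32. The members not yet named, Rrp1b, Noc2l, Nop2, Nip7, Noc3l and Nop16, ranged from -0.59 for Rrp1b to -0.34 for Nop16.

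All 4 multifunctional nucleolar proteins were lower on both scales by the fold, against 29.5% of all genes relative to the median gene and 13.9% on totals. They summed to 5220 CPM in control and 3705 CPM in CX-5461 cells, a log2 ratio of -0.49 (-0.50 to -0.49) on totals, and their median relative log2 ratio was -0.89. Ncl encodes nucleolin, an abundant RNA-binding protein that the study also imaged, and stood at 1514 CPM in control and 987 CPM in CX-5461 cells, a ratio of 0.652 (0.644 to 0.659). Npm1 encodes nucleophosmin, the main protein of the granular component and also imaged by the study, and stood at 3285 CPM and 2412 CPM, a ratio of 0.734 (0.729 to 0.740). Ddx21, an RNA helicase that binds the precursor and snoRNAs, stood at 117 CPM and 75.5 CPM, a ratio of 0.645 (0.619 to 0.671). Lyar, a zinc finger protein of stem cell nucleoli, stood at 304 CPM and 231 CPM, a ratio of 0.759 (0.741 to 0.777). Their relative log2 ratios ran from -0.99 for Ddx21 through -0.98 for Ncl and -0.80 for Npm1 to -0.76 for Lyar. Fbl, Ncl and Npm1, whose proteins were among those the study imaged, thus all had fewer CPM in CX-5461 cells. These values are of transcripts and not of protein, while the study described where the proteins lay and how mobile they were.

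The promoters of these genes are shown because E-boxes of the form CACGTG, the site that MYC and its relatives bind, are known from ribosome biogenesis genes. RefSeq promoters on GRCm38.p6, from 250 bases before to 50 bases after the start, were given for 38 of the 44 factors. CACGTG, which reads the same on both strands, stood in 9 of 38 (23.7%), against 7.15% of all 32851 promoters. The 9 were Imp4, Nle1, Nop2, Pes1, Tsr1, Utp18, Utp20, Utp4 and Wdr43. Factors with and without it had the same median relative log2 ratio, -0.45. The range with it ran from -1.04 for Utp18 to 0.64 for Utp20, so both ends of the processome carry the letters. The ETS motif CCGGAAG, searched on both strands, stood in 12 of 38 (31.6%), against 8.86% of all promoters. A factor with more than 1 listed promoter counted if any of them held the letters, while the shares of all promoters count each promoter. A match is a description of letters and not a binding site.

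Shown are the 2 lowest processome members, the 1 highest, and Ddx18, whose window holds no CACGTG. Capitals mark the E-box. It starts 20 bases before the transcription start in Utp18 (chr11:93885717-93886016, minus strand), 17 bases after it in Wdr43 (chr17:71615965-71616264, plus strand) and 37 bases after it in Utp20 (chr10:88826765-88827064, minus strand). The Ddx18 window is chr1:121567931-121568230, minus strand.
Utp18: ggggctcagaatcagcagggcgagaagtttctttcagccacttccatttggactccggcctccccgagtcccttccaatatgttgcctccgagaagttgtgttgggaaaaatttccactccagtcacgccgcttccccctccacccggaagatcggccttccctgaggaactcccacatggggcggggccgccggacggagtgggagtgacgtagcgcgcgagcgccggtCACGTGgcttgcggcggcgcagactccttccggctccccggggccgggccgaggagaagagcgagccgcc
Wdr43: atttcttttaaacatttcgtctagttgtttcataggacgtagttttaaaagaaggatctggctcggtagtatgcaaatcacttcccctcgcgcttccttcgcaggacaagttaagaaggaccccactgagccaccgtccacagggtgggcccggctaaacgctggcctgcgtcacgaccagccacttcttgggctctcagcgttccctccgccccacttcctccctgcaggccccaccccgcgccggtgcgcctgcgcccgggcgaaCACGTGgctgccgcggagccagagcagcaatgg
Utp20: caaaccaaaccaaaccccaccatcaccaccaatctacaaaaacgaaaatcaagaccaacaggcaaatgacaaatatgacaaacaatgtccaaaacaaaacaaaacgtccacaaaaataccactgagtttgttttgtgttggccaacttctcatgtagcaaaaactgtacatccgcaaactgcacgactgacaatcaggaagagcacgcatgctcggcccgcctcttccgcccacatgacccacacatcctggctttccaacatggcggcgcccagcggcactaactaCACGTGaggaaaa
Ddx18: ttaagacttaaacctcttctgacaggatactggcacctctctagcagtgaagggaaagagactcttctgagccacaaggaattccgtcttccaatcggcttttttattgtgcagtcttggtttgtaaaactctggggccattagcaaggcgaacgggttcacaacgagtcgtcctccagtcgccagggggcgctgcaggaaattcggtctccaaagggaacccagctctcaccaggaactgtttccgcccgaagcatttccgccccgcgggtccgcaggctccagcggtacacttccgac

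Other genes of the pathway were given by 3 lists of 85 genes that leave out the 44 factors. All 85 had at least 200 UMIs. Relative to the median gene 38 were lower and 6 were higher by the fold, with a median of -0.27, and 62 of 85 lay below the median gene. Their summed level was 6144 CPM in control and 6398 CPM in CX-5461 cells, a log2 ratio of 0.06 (0.05 to 0.07). Beside them stand 29.5% of all genes lower and 31.4% higher by the fold, so 38 of 85 is above the first share and 6 of 85 below the second. The sum of the 85 was lower relative to the median gene, at -0.30, and on totals without ribosomal protein and mitochondrial genes it was -0.01, so its sign depends on the scaling. The sum of the 44 factors was below 0 on all of these scales.

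The counts by list are again relative to the median gene, beside 29.5% of all genes lower and 31.4% higher by the fold. Of 37 other small-subunit factors 16 were lower and 1 was higher. The lowest were Dhx37, an RNA helicase, with 4.84 CPM in control and 2.38 CPM in CX-5461 cells, and Rrp7a, with 49.6 CPM and 28.6 CPM. The highest were Utp23, with 27.8 CPM and 55.7 CPM, and Rrp36, with 10.4 CPM and 15.9 CPM. Of 39 other large-subunit factors 18 were lower and 4 were higher. The lowest were Rsl24d1, the placeholder of a ribosomal protein, with 163 CPM in control and 73.3 CPM in CX-5461 cells, and Rrp8, with 41.6 CPM and 21.5 CPM. The highest were Urb1, with 7.43 CPM and 15.4 CPM, and Pa2g4, with 162 CPM and 313 CPM. Of 9 other snoRNP and assembly factors 4 were lower and 1 was higher. The lowest were Naf1, an H/ACA assembly factor, with 21.5 CPM and 16.4 CPM, and Ruvbl1, an ATPase of the assembly machinery, with 118 CPM and 93.0 CPM. The highest were its partner Ruvbl2, with 85.1 CPM and 139.7 CPM, and Znhit3, with 65.4 CPM and 98.7 CPM. Each of the 3 lists held genes past the fold in both directions, as did all genes together.

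The share of UMIs on the 44 factors was lower in the typical cell and not in a few cells only. In control ES-like cells the factors took a median of 1.01% of a cell's UMIs, with quartiles of 0.873% and 1.15%. In CX-5461 ES-like cells the median was 0.784%, with quartiles of 0.690% and 0.888%. The upper quartile of CX-5461 cells thus lay just above the lower quartile of control cells. The multifunctional proteins had medians of 0.517% in control and 0.358% in CX-5461 cells, the snoRNP core 0.239% and 0.1995%, and large-subunit factors 0.154% and 0.127%. Small-subunit factors had 0.0904% and 0.0965%, the 1 group whose median share, which is on library totals, was higher in CX-5461 cells.

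In 2C-like cells the share was measured too, in 9 control and 83 CX-5461 cells that passed the same filters. All factors together had a median of 0.812% in control and 0.737% in CX-5461 2C-like cells. The control value lay between the medians of control and CX-5461 ES-like cells and the CX-5461 value below both, and 9 cells are too few to say more of that pair.

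**Figure D3:**
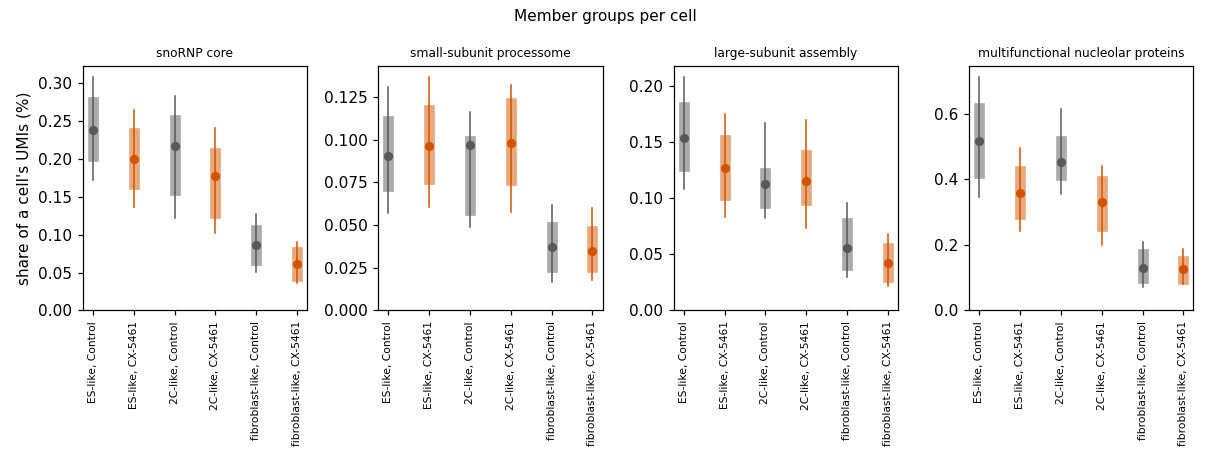
Each panel is 1 group of factors, and the vertical axis is the share of a cell's UMIs on that group in percent. Points are medians over cells, thick bars span the quartiles and thin lines the 10th to 90th percentiles, for ES-like, 2C-like and fibroblast-like cells of the control (grey) and CX-5461 (orange) libraries.

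Detection per cell was compared after each cell had been thinned at random to 5000 UMIs, so that depth was equal. Of 2368 control and 4441 CX-5461 cells named ES-like, 2336 and 3928 were deep enough and low enough in mitochondrial UMIs to enter. The unnamed cluster, mostly of control cells, stands in none of these counts. Control cells with at least 1 Ddx18 UMI made up 70.8% (68.9 to 72.6), and CX-5461 cells with one made up 37.7% (36.2 to 39.3). Unthinned, the shares were 94.6% and 72.8%. For Rrs1 the thinned shares were 12.3% and 5.50%, unthinned 35.8% and 14.9%. For Utp20 they were 8.73% (7.62 to 9.95) and 16.7% (15.6 to 17.9), unthinned 25.5% and 40.9%. Npm1 was found in all 2336 thinned control cells and in 99.97% of thinned CX-5461 cells, and at its level such a share is saturated and could not show a difference. In all, 30 of 44 factors had a lower thinned share in CX-5461 cells, and 35 had a lower unthinned one. The share of all genes with lower detection in CX-5461 cells was not computed, thinned or unthinned, so the counts of 30 and 35 have no background. No cell type in these cultures is known to lack such factors, so detection in cells without them could not be given either.

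Cells within 1 library also differed, in the treated library more than in the control library. The 2 main clusters of control ES-like cells, of 1411 and 925 deep cells, had factors from -0.23 to 0.16 on the log2 scale of cluster 2 over cluster 0. None of 44 was past the fold, against 2.05% of all 8062 genes lower and 4.92% higher. In the CX-5461 library, cluster 5, of 934 deep cells led by Rgs14 and Krt15, was set against cluster 6, of 2955 deep cells. There 33 of 44 factors were below 0, 12 were lower and 3 were higher by the fold, and the median was -0.18. Of all 10438 genes, 20.4% were lower and 22.6% were higher. Clusters were drawn from the same cells, so these values describe them and test nothing.

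The extremes between the 2 CX-5461 clusters were Nolc1, with 155 CPM in cluster 6 and 91.2 CPM in cluster 5, and Nob1, with 63.0 CPM and 90.04 CPM. Ddx18, far below control in both, had 97.2 CPM in cluster 6 and 81.4 CPM in cluster 5. Fbl had the same level in both, at 172 CPM and 171 CPM. Both clusters had lower median shares of the 44 factors, 0.814% and 0.704%, than the 2 control clusters, 1.02% and 0.989%. With cluster 6 alone standing for the treated cells, the summed log2 ratio on totals was -0.29 in place of -0.33.

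Feeder cells of the same cultures gave a second cell type with the same exposure. Fibroblast-like cells of equal filters numbered 197 in control, with 4485336 UMIs, and 160 in CX-5461, with 3914745 UMIs. All 20 fibroblast markers were detected, at 9533 and 10376 CPM in sum. Their 12 ES markers summed to 6.75% of the ES-like level in control and 5.05% in CX-5461 feeders, but Klf4 was higher in feeders than in ES-like cells, at 139 and 182 CPM. Without Klf4, left out after its values were seen, the other 11 stood at 5.002% and 2.88% of the ES-like level, which is taken as ES RNA in these barcodes. They fell from 381 CPM in control to 233 CPM in CX-5461 feeders, a log2 ratio of -0.71 (-0.82 to -0.59). Pou5f1, a core pluripotency factor, stood at 52.6 CPM and 20.7 CPM there, and Zfp42 at 38.6 CPM and 10.2 CPM. ES RNA thus fell together with the factors in feeders. The 44 factors stood at 33.0% and 34.5% of their ES-like level.

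In feeders the factors summed to 3332 CPM in control and 2768 CPM in CX-5461 cells, a log2 ratio of -0.27 (-0.30 to -0.23) on totals. Of the 44, 24 had at least 200 UMIs. The median log2 ratio of the 3898 genes that reached 200 UMIs was 0.16. Relative to it 17 of the 24 were lower and 1 was higher by the fold, against 27.4% and 26.2% of genes. On totals 14 were lower and 1 was higher, against 19.0% and 37.2%. Summed log2 ratios on totals were -0.50 for the snoRNP core, -0.52 for large-subunit factors, -0.08 (-0.19 to 0.02) for the processome and -0.09 for the multifunctional proteins. In that last group Npm1 gave 4505 of 6302 control UMIs. Of its 4 members 3 were lower by the fold on both scales, and the median relative log2 ratio was -0.72. Ddx21 stood at 60.4 CPM in control and 31.2 CPM in CX-5461 feeders, and Lyar at 74.2 CPM and 42.9 CPM.

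Among the feeders at or below the median share of ES markers, 99 control and 80 CX-5461 cells, 13 factors reached 200 UMIs. Against the median gene 8 were lower and 0 were higher, against 27.8% and 26.8% of genes, and on totals 6 were lower and 0 were higher, against 20.4% and 37.0%. The summed log2 ratio there was -0.21. The 11 ES markers fell in these cells too, from 1.98% to 0.969% of the ES-like level.

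With ES RNA subtracted from the feeder counts, its share taken from the 11 markers, the factors summed to 2975 CPM in control and 2611 CPM in CX-5461 feeders, a log2 ratio of -0.19 in place of -0.27. Against the median gene 17 of 24 were still lower and 1 was higher, against 27.5% and 26.1% of genes. On totals 12 were lower and 2 were higher, against 18.9% and 37.1%. The relative log2 ratio of Ddx18 was then -1.57, that of Npm1 0.01 and that of Ncl -0.26. So the sum was still lower after the subtraction, by less.

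Ddx18 was the lowest factor in feeders as well, with 98.3 CPM in control and 35.3 CPM in CX-5461 cells, a ratio of 0.359 (0.294 to 0.435). Nop56 had 71.6 CPM and 33.2 CPM, a ratio of 0.464 (0.376 to 0.571), below its 0.809 in ES-like cells. Wdr43 had 33.9 CPM and 14.8 CPM, a ratio of 0.437 (0.317 to 0.595). Gnl3 had 97.4 CPM and 52.1 CPM, a ratio of 0.535 (0.451 to 0.633). Utp3, with 36.8 CPM and 53.4 CPM, was the factor past the fold upward, at a relative log2 ratio of 0.38.

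For several factors the counting intervals of the 2 cell types did not overlap, in both directions. Of the 24 factors, the counting intervals of 12 did not overlap on totals, with the ratio higher in feeders for Npm1 and Ncl and lower for 10, among them Nop56, Gnl3, Gar1 and Lyar. On the relative scale 8 did not overlap, higher in feeders for Fbl, Ncl, Npm1 and Utp3 and lower for Ebna1bp2, Gnl3, Imp3 and Nop56. The share of all genes without overlap was not computed, so these counts have no background and do not set the factors apart from other genes. On totals the median gene also differed, with a log2 ratio of 0.36 in ES-like cells and 0.16 in feeders. In feeders Npm1 stood at 1004 CPM in control and 1034 CPM in CX-5461 cells, a ratio of 1.03 (0.987 to 1.07), against 0.734 (0.729 to 0.740) in ES-like cells. Ncl stood at 266 CPM and 210 CPM in feeders, a ratio of 0.791 (0.723 to 0.866), against 0.652 (0.644 to 0.659). Fbl stood at 86.3 CPM and 69.0 CPM, a ratio of 0.799 (0.682 to 0.936), against 0.709 (0.690 to 0.729). Both cell types come from the same 2 libraries, and the difference between them was not tested across replicates.

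**Figure D4:**
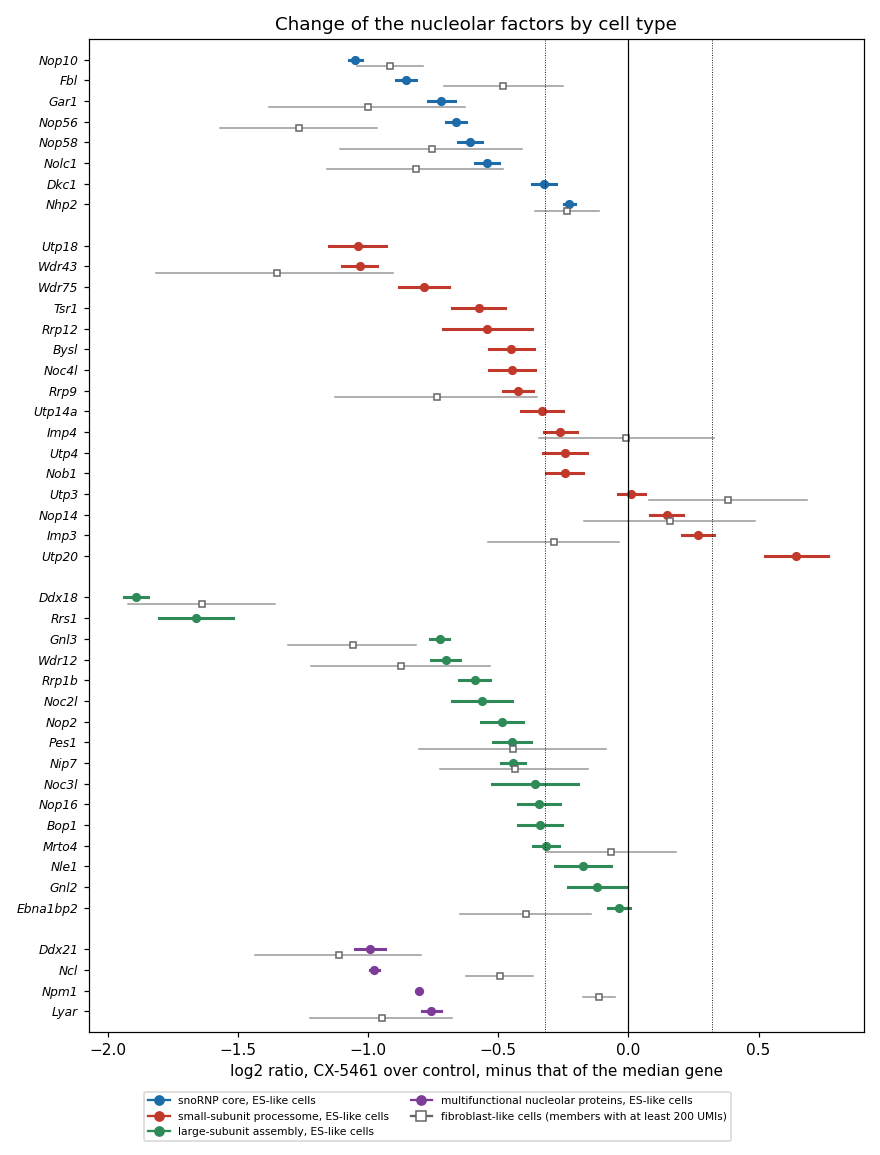
The horizontal axis is the log2 ratio of CX-5461 over control minus that of the median gene, with 1 line per factor, grouped by role. Filled circles are ES-like cells and open squares fibroblast-like cells for the 24 factors with at least 200 UMIs there, bars are 95% counting intervals, and dotted lines mark the fold of 0.32; nearly all circles lie left of 0 and Ddx18 is lowest in both cell types.

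Some of the factors are also hosts of snoRNAs. By the GENCODE annotation of GRCm38, 7 factors hold 21 snoRNA genes on the same stretch, namely Ncl, Nop56, Nop58, Gnl3, Dkc1, Tsr1 and Wdr43. Their median relative log2 ratio was -0.66, from -1.03 to -0.32, and that of the 37 others was -0.45, from -1.89 to 0.64. The 7 lay inside the range of the others.

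Several factors overlap other genes, and the strand setting of the counting is not given in the sources used here. Bysl, with 4406 UMIs over both libraries, overlaps Ccnd3 on the other strand, with 19230 UMIs. Rrp1b, with 9195 UMIs, overlaps Hsf2bp, with 6570 UMIs, and Nop56, with 21287 UMIs, overlaps Idh3b, with 8679 UMIs. The values of Bysl, Rrp1b and Nop56 are therefore uncertain where reads could have been given to either gene. Genes of small RNAs, such as snoRNAs, were left out of this check. Apart from those, Ddx18, Rrs1, Utp20, Npm1, Ncl, Fbl and Nop10 overlap no other annotated gene. The authors' column of ambiguous counts was 0 for all 44 factors.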

How the data were processed

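Single-cell RNA-seq libraries of untreated and CX-5461-treated mES cells were made with the 10x Genomics 3' kit, version 2. The authors deposited UMI counts for each gene in each barcode, not normalized, made with a published droplet pipeline against mm10, before the cell filters that they applied in Seurat 2.3.4. A deposited column of ambiguous counts was used only as a check of the 44 factors.

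Counts were summed over cells of a class and divided by the summed total (CPM). Symbols were taken from GENCODE (GRCm38), where 54079 of 54146 identifiers matched without and 52480 with their version, and 40 of the 44 factors carried the same version. Cells of 500 UMIs or more, with a mitochondrial share of up to 0.2, were clustered with scanpy 1.11.5 (Python 3.11.15) on 2000 variable genes, leaving out rRNA processing genes, with 16 principal components, 15 neighbours and Leiden resolution 0.5. A fibroblast-like or 2C-like cluster needed at least 3 markers among its 50 leading genes and 1 among the top 10, and an ES-like cluster had to reach 0.5 of the ES marker level over all cells. Clusters of low depth without such a marker stayed unnamed. No doublet caller was run. Leaving out the 5% of ES-like cells with the most UMIs is a rough substitute for these cells only. It removes no feeder barcode, so doublets of ES and feeder cells were not looked for.

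Ratios carry exact conditional binomial intervals and shares exact Clopper-Pearson intervals at 95%, for counting error only. Each condition was 1 library, so no p-value was computed. Ratios and intervals were tested on simulated data. The factors, gene lists, cell filters and fold were chosen with earlier results of these data known. Named with values were Ncl, Npm1 and Fbl, the 4 lowest and 4 highest factors of each group, and the 2 lowest and 2 highest of each list of other pathway genes. Alternatives were TMM scaling (edgeR 4.0.16), other totals, cell sets, depth, gene minimum and fold, of which a median over highly counted genes, a single treated cluster and the subtraction of ES RNA from feeders were chosen after seeing the data.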

Additional observations from a re-analysis of the deposited data

Results flagged for a closer look

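Imp3, which joins the U3 snoRNA to the precursor rRNA, stood on opposite sides of the median gene in the 2 cell types. Its relative log2 ratio of CX-5461 over control was 0.27 (counting interval 0.20 to 0.33) in ES-like cells and -0.29 in fibroblast-like feeders. On library totals its ratio was 1.54 in ES-like cells and 0.914 (0.767 to 1.09) in feeders, where it rests on 296 control and 236 CX-5461 UMIs. The difference between the cell types was not tested, since each condition is 1 library.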

How the results depend on the processing

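No paired analysis was possible because the cells of each condition stand in 1 table without a sample of origin. For the same reason no replicate could be left out. No alternative turned the direction of the sum over all factors, of their median or of a relative log2 ratio past the fold. On totals TMM turned Ebna1bp2, from 0.32 to -0.08, and Utp3, from 0.37 to -0.03, and the sum of the processome, from 0.10 to -0.30, and of the other 85 genes, from 0.06 to -0.34. In ES-like cells, TMM scaling, which removes a shift of 0.40 on the log2 scale, gave 33 factors lower and 1 higher and a summed log2 ratio of -0.73 on its totals. Totals without 77 ribosomal protein and 37 mitochondrial genes gave 3 higher and a sum of -0.39. The sum on totals and the median relative log2 ratio, -0.33 and -0.47 in the report, were -0.36 and -0.49 as a mean over cells, -0.36 and -0.50 after thinning, -0.29 and -0.39 over all cells of the study's filter, -0.29 and -0.41 with ES cells taken by markers, -0.35 and -0.49 without the 5% of cells with the most UMIs, and -0.29 and -0.40 with cluster 6 alone. ES-like cells at the study's filter gave a sum of -0.32. With no UMI minimum the median was -0.56. Against highly counted genes it was -0.36, with 2 factors higher. A ratio of 1.5 as the mark left 17 lower relative to the median gene, and 7 lower and 2 higher on totals. In feeders TMM gave a sum of -0.42, and subtracting ES RNA gave 2 higher on totals, a sum of -0.19 and a median of -0.57. Feeders low in ES markers gave 8 lower and 0 higher relative to the median gene, 6 lower and 0 higher on totals, a sum of -0.21 and a median of -0.46, over 13 factors in place of 24. The causes of these shifts were not tested.

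Depth limits the feeders most: 20 of the 44 factors had fewer than 200 UMIs there. With 1 library per condition, treatment, library, depth and mitochondrial share cannot be told apart, and every interval leaves out the spread between cultures. Intervals of ratios also leave out the spread between cells, since they rest on UMIs summed over cells.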
